A study of Mus musculus with 23 samples.

Results

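The 17 dorsal hippocampus libraries of the series were used to measure how the transcriptional difference after fear conditioning depended on Acss2, a gene for an enzyme that makes acetyl-CoA from acetate. For each gene the measure was the interaction, which is the difference between fear-conditioned and home cage mice in knockouts (KO) minus the same difference in wild types (WT), on the log2 scale and with batch as a term. All 17 of the 23 libraries that the series labels as its dorsal experiment entered, and the 6 whole hippocampus libraries were left out. The groups were KO fear (4 libraries), KO home cage (5), WT fear (3) and WT home cage (5). All mice had a C57BL6/J background. The KO mice carried a constitutive loss of ACSS2, made by removing exons 3 to 7 of the locus in embryos at the single-cell stage, so the deletion was not limited to a cell type or a stage of life. Fear mice were killed 30 min after contextual conditioning with a single shock, and home cage mice served as the baseline. Handling, the new context, the shock and learning therefore cannot be told apart. Each library came from a 1 mm dorsal section cut with a brain matrix, from which polyadenylated RNA was sequenced. The labels give neither age nor sex, and they do not say that replicates are separate animals, so p-values measure the spread between these samples.

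The rapid transcriptional response to neuronal activity begins when calcium entry activates kinases that phosphorylate transcription factors already bound at immediate early genes, such as CREB and SRF. Genes induced by activity, at once or with a delay, encode transcription factors (Fos, Junb, the Egr and Nr4a families), synaptic proteins (Arc) and inhibitors of the same kinase pathway (Dusp6, Spry4). In hippocampal neurons histone acetylation at such genes draws on nuclear acetyl-CoA, for which ACSS2 is a known source, and the dorsal hippocampus is needed to store contextual fear memory. The comparison thus asks whether the early fear response is the same without this enzyme.

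Of 14808 genes tested, 71 (0.479%) passed an adjusted p of 0.05 for the interaction, 29 with a higher (0.196%) and 42 with a lower fear difference in KO than in WT. Among the lower ones were the activity-regulated genes Egr2, Egr1, Junb, Nr4a2, Dusp6 and Spry4, the clock gene Bhlhe40 and CA1 marker genes. Among the higher ones were genes of motile cilia, smooth muscle actin and the CA2 marker Amigo2. In the higher set the median fear difference was 0.22 in KO and -1.68 in WT, and in the lower set it was -0.19 in KO and 0.87 in WT, against -0.00173 in KO and -0.02 in WT over all genes tested. The size of the WT difference exceeded that of the KO difference in 29 of 29 higher and 39 of 42 lower genes, and in 10392 of all 14808 genes. Taken alone, fear gave 0 calls in KO (0%; 714 genes, or 4.82%, with an unadjusted p under 0.05, DESeq2 6, limma-voom 0) and 241 in WT (1.63%; 129 higher, or 0.871%, and 112 lower, or 0.756%). The 71 calls lay close to the threshold, with edgeR adjusted p-values of 0.038 to 0.0477, and DESeq2 called 898 genes where limma-voom called 0. At an unadjusted p under 0.05 the interaction took in 3238 genes (21.9%), 10.1% higher and 11.8% lower, and the DESeq2 calls were 2.08% higher and 3.95% lower of the genes it tested. All 17 fits that left out 1 library kept the direction of each of the 71 genes. The genes were chosen on these same libraries, so a kept direction is no separate support. Of the 17 fits, 10 called 0 genes. Those 10 left out WT fear 2 or 3, WT home cage 2 or 5, KO home cage 4 or 5, or any 1 of the 4 KO fear libraries. Leaving out KO home cage 2, WT home cage 3 or WT home cage 4 gave 5, 3 and 1 calls, and leaving out WT fear 1, KO home cage 1, WT home cage 1 or KO home cage 3 gave 1007, 894, 664 and 102. The 241 calls in WT likewise ran from 6 without WT home cage 2 to 829 without WT home cage 1.

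**Figure D1:**
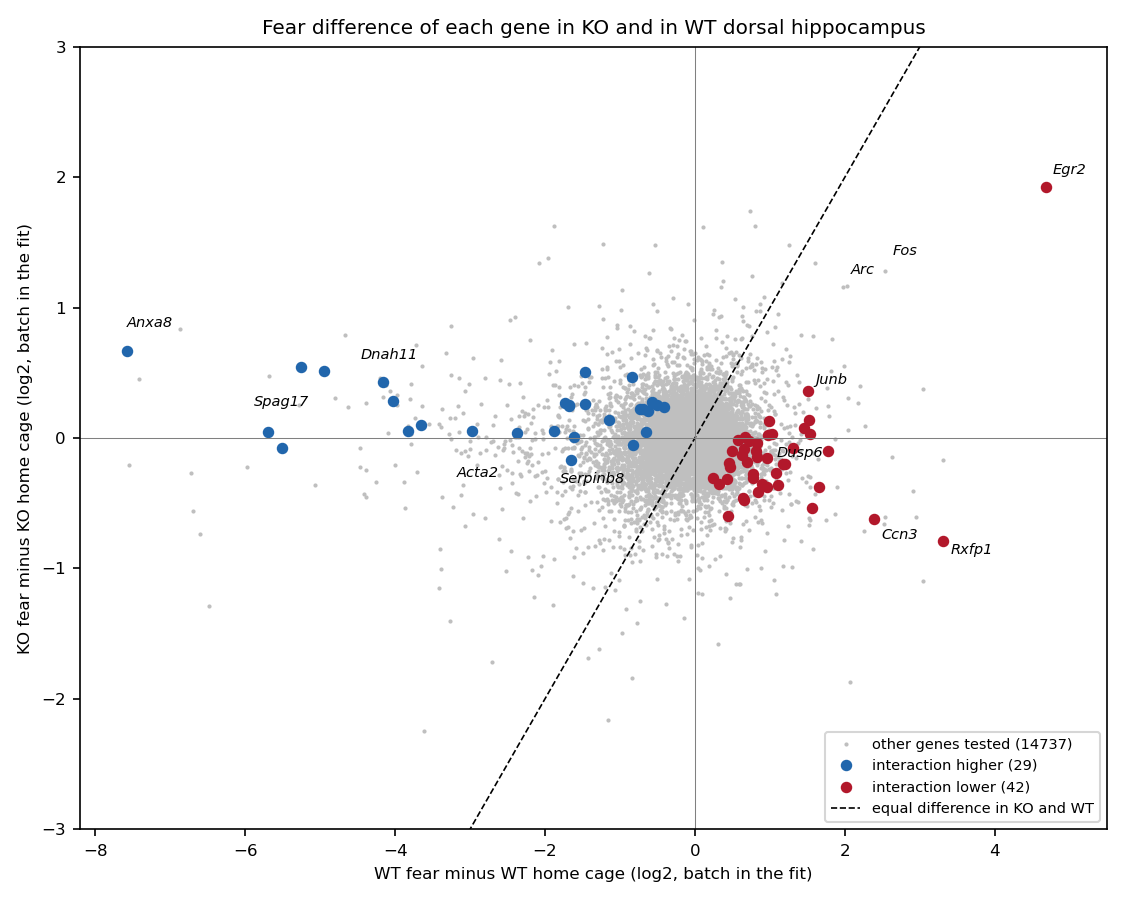
Each point is a gene tested, with its fitted log2 fear difference in WT on the horizontal axis and in KO on the vertical axis, and the dashed line marks equal differences. The 29 genes with a higher interaction (blue) lie left of 0 on the WT axis and the 42 with a lower one (red) lie right of it, while their KO differences run from -0.79 to 1.93.

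Acss2 itself separated the genotypes in each library. KO fear libraries held 5.47, 5.18, 5.43 and 6.04 CPM (the gene's count scaled to the library's total, with TMM factors) and KO home cage libraries 4.17, 4.55, 3.87, 4.89 and 5.85 CPM, against 57, 57.7 and 56.2 CPM in WT fear and 57.6, 64.7, 71.3, 66.9 and 65.6 CPM in WT home cage. The counts cover the whole gene, including exons that were kept, and reads of Acss2os, Ggt7 and Gss, which share sequence positions with Acss2 on the other strand, cannot be told apart from its own because the kit does not mark strand. Its interaction was 0.40 ± 0.14 (edgeR adjusted p = 0.131), which did not pass. Library totals ran from 7142143 to 19136156 counts in KO fear, 14054430 to 23412644 in KO home cage, 5362773 to 9109104 in WT fear and 7790467 to 22388429 in WT home cage. Batch B1 (5362773 to 9109104 counts per library) held KO fear 1 and 2, the 3 WT fear libraries and WT home cage 1 and 2. B2 held KO home cage 1 to 3 and WT home cage 3 to 5, and B3 held KO fear 3 and 4 with KO home cage 4 and 5. No batch held all 4 groups, and each WT fear library was of B1. Each of the 17 libraries had reads of 4 Y-linked genes, with Ddx3y at 70.5 to 120 CPM, and at most 3 reads of Xist. In bulk tissue, fewer cells of a type and less RNA per cell cannot be told apart.

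The promoters of the activity-regulated genes are shown because the factors that start their transcription bind there. The 250 bases before the RefSeq start site (GRCm38.p6, the build also called mm10) were read for 4 of the 6 called activity-regulated genes, Egr2, Junb, Nr4a2 and Dusp6. Capitals mark TGACG on either strand, the core of the CREB element, and the CArG box, the element of SRF. Egr2 lies at chr10:67537619-67537868 on the plus strand, Junb at chr8:84978749-84978998 on the minus strand, Nr4a2 at chr2:57124004-57124253 on the minus strand and Dusp6 at chr10:99262981-99263230 on the plus strand.
Egr2: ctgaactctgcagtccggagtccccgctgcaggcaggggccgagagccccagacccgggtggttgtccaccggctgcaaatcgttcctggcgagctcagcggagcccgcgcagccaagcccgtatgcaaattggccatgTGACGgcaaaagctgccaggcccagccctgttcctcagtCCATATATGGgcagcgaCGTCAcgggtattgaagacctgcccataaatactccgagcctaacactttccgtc
Junb: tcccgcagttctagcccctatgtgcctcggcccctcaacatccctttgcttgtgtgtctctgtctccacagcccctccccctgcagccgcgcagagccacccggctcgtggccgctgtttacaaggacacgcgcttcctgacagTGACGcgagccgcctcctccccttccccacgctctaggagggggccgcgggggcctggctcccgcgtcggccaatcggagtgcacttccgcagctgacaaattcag
Nr4a2: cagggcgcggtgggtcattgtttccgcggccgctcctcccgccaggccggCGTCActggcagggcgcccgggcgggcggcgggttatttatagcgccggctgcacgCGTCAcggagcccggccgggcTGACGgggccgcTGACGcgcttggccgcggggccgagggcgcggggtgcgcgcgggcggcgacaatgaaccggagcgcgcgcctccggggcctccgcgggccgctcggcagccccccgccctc
Dusp6: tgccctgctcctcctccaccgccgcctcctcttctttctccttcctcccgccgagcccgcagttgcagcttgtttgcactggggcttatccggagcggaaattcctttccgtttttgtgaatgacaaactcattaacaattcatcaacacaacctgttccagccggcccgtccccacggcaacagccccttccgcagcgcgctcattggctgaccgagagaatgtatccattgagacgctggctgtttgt
The Egr2 window held 2 copies of TGACG, one on each side of 1 CArG box, the Junb window 1 copy of TGACG and the Nr4a2 window 4, and neither motif was found in the Dusp6 window. The full element TGACGTCA, which contains TGACG, was in none of the 4. Over the 32851 promoters of the same length in the table, 17.8% held TGACG, 1.55% TGACGTCA and 1.47% a CArG box, searched on both strands. A match is a run of letters and not a measured site, and a window without one says nothing about the factor.

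Egr2, an early growth response transcription factor, showed the largest activity-related interaction of the called genes. It stood at 3.42, 6.38, 7.42 and 10.5 CPM in KO fear and 1.06, 1.52, 0.638, 2.17 and 1.99 CPM in KO home cage, against 4.9, 12.1 and 12 CPM in WT fear and 0.337, 0.753, 0.227, 0.138 and 0.306 CPM in WT home cage. In both genotypes every fear library lay above every home cage library, and the KO home cage libraries, from 0.638 CPM up, overlapped WT home cage only at WT home cage 2. The fear difference was 1.93 ± 0.38 in KO and 4.68 ± 0.49 in WT, with an interaction of -2.75 ± 0.53 (edgeR adjusted p = 0.0406). KO minus WT was -0.90 after fear and 1.86 in the home cage on the log2 scale. Its counts were low at rest, with 128 reads over the 5 KO home cage libraries against 22 over the 5 WT home cage libraries.

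Egr1, a related factor used as a mark of recent neuronal activity, stood at 92.9, 93.8, 184 and 209 CPM in KO fear and 85.2, 154, 121, 136 and 146 CPM in KO home cage, against 147, 213 and 238 CPM in WT fear and 78.5, 78.8, 90.9, 65.8 and 64 CPM in WT home cage. The WT groups did not overlap. KO fear 1 and 2, both of B1, lay within the KO home cage range, and KO fear 3 and 4, both of B3, lay above it. The fear difference was 0.14 ± 0.21 in KO and 1.52 ± 0.23 in WT, and the interaction -1.38 ± 0.27 (edgeR adjusted p = 0.042). Junb, a subunit of the AP-1 transcription factor, stood at 46.6, 64.4, 107 and 112 CPM in KO fear and 56.6, 85.6, 58.1, 69.5 and 80.5 CPM in KO home cage, against 67.2, 104 and 91 CPM in WT fear and 32.8, 33.5, 46.2, 39.7 and 36.2 CPM in WT home cage. Again the WT groups were apart and the KO groups overlapped, with KO fear 1 below every KO home cage library and KO fear 3 and 4 above all of them. Its interaction was -1.15 ± 0.22 (edgeR adjusted p = 0.042), from 0.36 ± 0.18 in KO and 1.51 ± 0.20 in WT. Junb overlaps Prdx2 on the opposite strand. Further genes with such an overlap, not repeated below, are Bhlhe40, Spag17, Il1rap, Irf2bp2, Pou3f1, Map3k15, Hdac4, Acss1, Dusp1 and Bdnf.

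**Figure D2:**
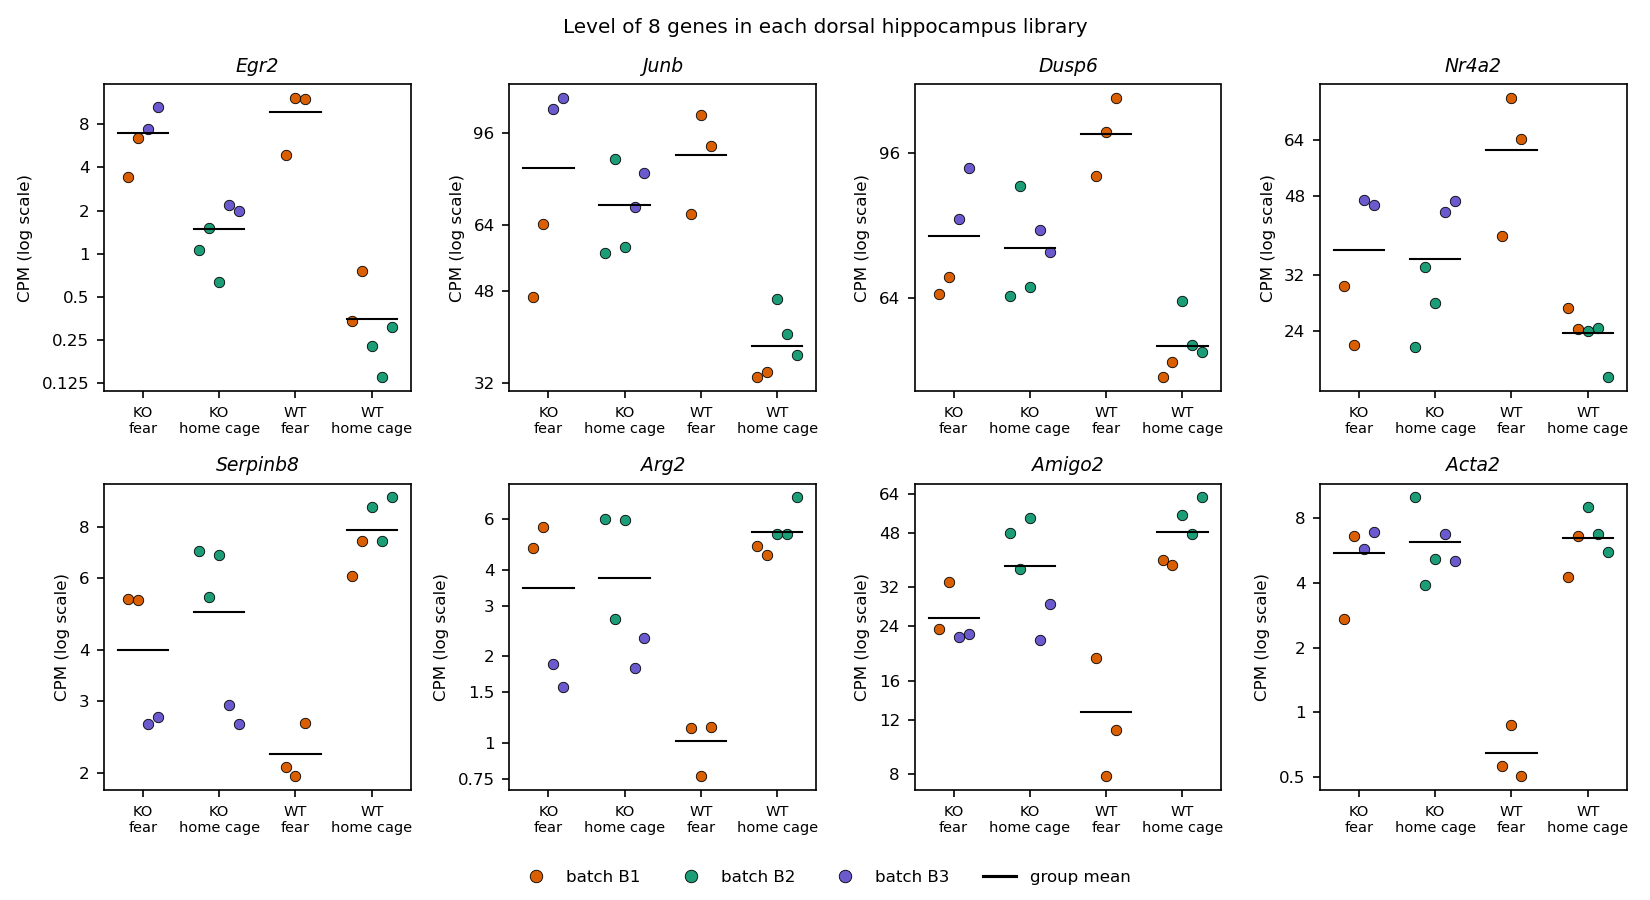
Each point is 1 library, with its level in CPM on a log axis, grouped by genotype and condition and coloured by batch, and the line is the group mean. In the upper row (Egr2, Junb, Dusp6, Nr4a2) all 3 WT fear libraries lie above all 5 WT home cage libraries, and in the lower row (Serpinb8, Arg2, Amigo2, Acta2) they lie below, while the KO groups overlap except in Egr2.

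Nr4a2, an orphan nuclear receptor induced by activity, stood at 30.2, 22.4, 47.1 and 45.9 CPM in KO fear and 22.2, 33.4, 27.7, 44.1 and 46.8 CPM in KO home cage, against 39, 79 and 64.1 CPM in WT fear and 27.1, 24.3, 24.1, 24.4 and 19 CPM in WT home cage. All 3 WT fear libraries lay above all WT home cage ones, and within KO the batch separated libraries more than fear did, since the 4 B3 libraries held 44.1 to 47.1 CPM in both conditions. The fear difference was -0.07 ± 0.19 in KO and 1.31 ± 0.22 in WT, and the interaction -1.39 ± 0.25 (edgeR adjusted p = 0.0406). Bhlhe40, a repressor of clock genes that is also induced by activity, had the smallest p of the lower genes. It stood at 54.3, 57.8, 92.5 and 103 CPM in KO fear and 57.6, 91, 70.1, 118 and 119 CPM in KO home cage, against 78.3, 155 and 132 CPM in WT fear and 62.8, 54.2, 49.6, 59.1 and 52.7 CPM in WT home cage. KO fear 1 lay below every KO home cage library and KO fear 2 just above the lowest one, whereas in WT every fear library was above every home cage library. Its interaction was -1.47 ± 0.23 (edgeR adjusted p = 0.0406), from -0.36 ± 0.18 in KO and 1.11 ± 0.20 in WT.

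Dusp6 and Spry4 encode inhibitors of the ERK kinase pathway that ERK activity itself induces. Dusp6, the ERK phosphatase, stood at 64.8, 68, 80 and 92.2 CPM in KO fear and 64.4, 87.7, 66.1, 77.5 and 72.8 CPM in KO home cage, against 90, 102 and 112 CPM in WT fear and 51.3, 53.5, 63.5, 56.1 and 55.1 CPM in WT home cage. WT fear lay wholly above WT home cage, and the KO groups overlapped over most of their range. The interaction was -0.86 ± 0.15 (edgeR adjusted p = 0.0406), with 0.13 ± 0.12 in KO and 0.99 ± 0.13 in WT. Spry4, which acts upstream of ERK, stood at 9.43, 8.79, 10.5 and 12.6 CPM in KO fear and 11.3, 12.3, 12.6, 12.3 and 10.3 CPM in KO home cage, against 16.9, 19.2 and 17.7 CPM in WT fear and 10.1, 10.8, 13.9, 11 and 11.5 CPM in WT home cage. All 4 KO fear libraries of Spry4 lay below all 3 WT fear libraries, while the home cage ranges overlapped. KO minus WT was -0.93 after fear and -0.06 in the home cage, with an interaction of -0.87 ± 0.16 (edgeR adjusted p = 0.0406).

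The other activity genes did not pass for the interaction. Arc, which encodes a synaptic protein needed for lasting memory, stood at 266, 228, 307 and 310 CPM in KO fear and 72, 148, 123, 147 and 163 CPM in KO home cage, against 241, 260 and 336 CPM in WT fear and 57.4, 75.2, 117, 68.4 and 63.9 CPM in WT home cage. Fear libraries of both genotypes lay above all their home cage libraries, and the KO and WT fear ranges overlapped. The fear difference was 1.16 ± 0.23 in KO (edgeR adjusted p = 0.404) and 1.98 ± 0.27 in WT (edgeR adjusted p = 0.00211), with an interaction of -0.83 ± 0.29 (edgeR adjusted p = 0.126). Fos, the AP-1 subunit most used to mark active neurons, stood at 18.4, 21.2, 34.7 and 36.5 CPM in KO fear and 9.45, 13.7, 8.79, 13.4 and 13.4 CPM in KO home cage, against 18.3, 33.3 and 23.4 CPM in WT fear and 4.04, 5.52, 7.71, 4.31 and 3.11 CPM in WT home cage. The same separation held within each genotype. The lowest KO home cage library, at 8.79 CPM, lay above the highest WT home cage library, at 7.71 CPM. The interaction of Fos was -1.26 ± 0.33 (edgeR adjusted p = 0.0661), from 1.28 ± 0.25 in KO and 2.54 ± 0.31 in WT.

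DESeq2 called Fos, Arc, Egr2 and Btg2, an antiproliferative immediate early gene, as higher after fear in KO (DESeq2 adjusted p = 0.0176, 0.0176, 0.0391 and 0.0176). With Ranbp6 and Tmem38b these made up its 6 calls, named here after their values were seen. In the fit without batch, Egr2 alone passed in KO (edgeR adjusted p = 0.0444). Fosb and Nr4a1, which encode another AP-1 subunit and a relative of Nr4a2, had interactions of -1.44 ± 0.33 and -1.38 ± 0.30 (edgeR adjusted p = 0.0521 and 0.0507). Values for Npas4, a neuron-specific activity-dependent factor, were -0.50 ± 0.42, for the phosphatase gene Dusp1 -0.50 ± 0.26 and for the neurotrophin gene Bdnf 0.29 ± 0.15 (edgeR adjusted p = 0.478, 0.263 and 0.271). Npas4 was the 1 gene of these whose direction differed by route through the batches, with 0.24 without B2 and -1.22 without B3.

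Over the whole list of 29 rapid activity-induced genes, 0 passed higher and 3 lower for the interaction (Egr2, Egr1, Junb; background 0.196% and 0.284%), and 23 of 29 were below 0. Over all genes 6871 of 14808 were below 0. At an unadjusted p under 0.05, 13 of the 29 were lower, against 11.8% of all genes, and DESeq2 called 9 lower, against 3.95%. The list median was -0.43, against 0.0338 over all genes tested. The median fear difference was 0.26 in KO, with 0 members called, and 0.71 in WT, with 11 called higher. After fear the list lay at a median of -0.20 in KO relative to WT, and in the home cage at 0.21, with 24 of 29 members above 0 in the home cage and 6 of 29 after fear. Summed over the list, KO fear libraries held 996, 1040, 1430 and 1500 CPM and KO home cage libraries 802, 1110, 911, 1040 and 1100 CPM, against 1160, 1430 and 1490 CPM in WT fear and 694, 695, 800, 739 and 705 CPM in WT home cage. Every KO home cage sum was higher than every WT home cage sum, and the fear groups overlapped. Of 29 delayed activity-induced genes 3 passed lower (Nr4a2, Dusp6, Spry4), against 0.284% of all genes. Unadjusted, 3 were higher and 10 lower, against 10.1% and 11.8% of all genes. DESeq2 called 2 of these genes higher and 5 lower, against 2.08% and 3.95%. The median of the delayed list was -0.04, and it turned to 0.0482 without B2. In the circadian clock list edgeR called Bhlhe40 alone of 19, against 0.284% of all genes, and 16 of 19 lay below 0 with a median of -0.39. Of the 19, 12 were lower unadjusted, against 11.8% of all genes, and DESeq2 called 7 lower, against 3.95%. Per2, a clock repressor, had an interaction of -1.02 ± 0.24 (edgeR adjusted p = 0.0549).

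The remaining lower genes of smallest p included receptors and transcriptional regulators. Klf16, a zinc finger transcription factor, had an interaction of -0.97 ± 0.17, and Irf2bp2, a transcriptional corepressor, -0.60 ± 0.11. Htr1a, the inhibitory serotonin 1A receptor, had -1.38 ± 0.26, the transmembrane AMPA receptor regulatory protein gene Cacng3 -1.12 ± 0.20, and the thyroid hormone receptor gene Thrb -1.08 ± 0.21. Slc5a5, the sodium-iodide symporter, had -1.05 ± 0.20, the intracellular fibroblast growth factor Fgf11 -1.38 ± 0.27 and Vstm2l -1.10 ± 0.20. Each of these 8 had an edgeR adjusted p of 0.0406. Cacng3 and Vstm2l, with 22.8 to 49.5 and 26.5 to 51.2 CPM in KO fear, did not pass for fear in WT on its own (edgeR adjusted p = 0.0642 and 0.0706), and in both the KO fear difference was below 0, at -0.47 ± 0.16 and -0.46 ± 0.16.

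CA1 markers made up a further group of lower genes. Of 10 genes typical of CA1 pyramidal neurons, 4 passed lower (Gpr161, Mpped1, Ccn3 and Pou3f1), against 0.284% of all genes, and 9 lay below 0, against 6871 of all 14808. At an unadjusted p under 0.05, 8 of the 10 were lower, against 11.8% of all genes, and DESeq2 called 6 lower, against 3.95%. The median interaction was -1.54, and it turned to 0.0753 with the ependymal markers as a covariate. Gpr161, a ciliary receptor gene, stood at 32.4, 33.4, 80.5 and 78.3 CPM in KO fear and 28.9, 71, 58.9, 85.1 and 81.4 CPM in KO home cage, against 59.7, 135 and 149 CPM in WT fear and 51.2, 31, 32.1, 33.2 and 37.3 CPM in WT home cage. The WT groups did not overlap, and in KO the 2 B1 fear libraries were low and all 4 B3 libraries high. Its interaction was -2.04 ± 0.38 (edgeR adjusted p = 0.0406). Ccn3, a secreted matricellular protein, stood at 27.9, 22.6, 76.1 and 105 CPM in KO fear and 21.8, 47.6, 29, 116 and 123 CPM in KO home cage, against 32.8, 277 and 99.9 CPM in WT fear and 28.8, 29.1, 16.7, 20.1 and 16.3 CPM in WT home cage. WT fear 2 alone reached 277 CPM, and WT fear 1 was only a little above the highest WT home cage library. The interaction was -3.02 ± 0.57 (edgeR adjusted p = 0.0406), and leaving out each library in turn moved it between -3.49 and -1.98. Mpped1 and Pou3f1, a POU transcription factor gene, had -1.41 ± 0.27 and -1.24 ± 0.25 (edgeR adjusted p = 0.0406 and 0.0447).

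The higher genes included a set carried by ciliated ependymal cells, which line the ventricles. All 12 ependymal markers were above 0, against 53.6% of all genes, with a median of 3.04. Of them 4 passed higher (Dnah11, Spag17, Ccdc153, Ak7), against 0.196% of all genes. All 12 had an unadjusted p under 0.05, against 10.1% of all genes in that direction. DESeq2 called 12 of 12 higher, against 2.08% of the genes it tested. Dnah11, an axonemal dynein heavy chain, stood at 4.24, 2.77, 2.69 and 1.62 CPM in KO fear and 3.27, 0.979, 2.55, 1.68 and 1.35 CPM in KO home cage, against 0.188, 0.219 and 0.379 CPM in WT fear and 3.93, 6.27, 7.14, 2.75 and 2.55 CPM in WT home cage. The 3 WT fear libraries, with 6 reads in all, lay below all 14 others. The interaction was 4.59 ± 0.78 (edgeR adjusted p = 0.0406), with 0.43 ± 0.43 in KO and -4.17 ± 0.72 in WT, and Dnah11 overlaps Cdca7l on the opposite strand. Spag17, of the central pair of motile cilia, had 1 read over the 3 WT fear libraries, and Ccdc146, a centriole and cilium protein, 2. Within B1 the ratio of KO fear to WT fear was 42.9 for Spag17 (95% counting interval 7.14 to 1750, from 30 reads against 1) and 38.6 for Ccdc146 (10.2 to 327, from 54 reads against 2). The ratio of WT home cage to WT fear within B1 was 59.6 for Spag17 (10.2 to 2410) and 29.1 for Ccdc146 (7.6 to 248). The intervals are exact binomial ones and cover counting error only. Anxa8, with the largest fitted interaction of the called genes, had 0 reads in WT fear, against 91 over KO fear, 122 over KO home cage and 128 over WT home cage, so its fitted value of 8.25 is no bound. With WT fear set to 3 counts per library for Anxa8, KO fear within B1 was at least 5.57-fold higher and its interaction was 2.68. The median of the higher set stayed at 1.93, which it had to, since Anxa8 alone was changed and remained above the median.

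Acta2, smooth muscle actin, is a marker of vessel walls. It stood at 2.73, 6.62, 5.75 and 6.9 CPM in KO fear and 10, 3.92, 5.19, 6.77 and 5.08 CPM in KO home cage, against 0.565, 0.877 and 0.505 CPM in WT fear and 4.27, 6.65, 9.07, 6.75 and 5.56 CPM in WT home cage. WT fear lay below all other libraries, while the remaining groups overlapped. The interaction was 3.03 ± 0.57 (edgeR adjusted p = 0.0406), the only call among 11 pericyte and smooth muscle markers tested. Those 11 were all above 0, against 53.6% of all genes, with a median of 0.57. At an unadjusted p under 0.05, 4 were higher, against 10.1% of all genes, and DESeq2 called 2 of the list higher, against 2.08%. Cald1, which encodes an actin-binding regulator of contraction, had 0.76 ± 0.13 (edgeR adjusted p = 0.0406), and its KO fear libraries (38.6 to 58.1 CPM) lay above all KO home cage libraries (30.2 to 35.4 CPM) although the KO fear difference was only 0.25 ± 0.10.

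Amigo2, an adhesion protein gene that marks CA2 pyramidal neurons, stood at 23.5, 33.4, 22.1 and 22.7 CPM in KO fear and 48.1, 36.7, 53.4, 21.6 and 28.2 CPM in KO home cage, against 19, 7.89 and 11.1 CPM in WT fear and 39.2, 37.9, 54.8, 47.5 and 62.4 CPM in WT home cage. WT fear was lowest and did not overlap with any other group. The interaction was 1.49 ± 0.28 (edgeR adjusted p = 0.0406), and Amigo2 overlaps Pced1b on the opposite strand. Over 13 CA2 and CA3 markers the median was 0.83, with 11 above 0 and Amigo2 as the 1 edgeR call, against 0.196% of all genes. At an unadjusted p under 0.05, 9 were higher and 1 lower, against 10.1% and 11.8% of all genes. DESeq2 called 3 higher and 1 lower, against 2.08% and 3.95%. Cpne4 and Map3k15, further markers of CA3 and CA2, had 1.01 ± 0.24 and 1.67 ± 0.48 (edgeR adjusted p = 0.0549 and 0.0876).

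Serpinb8, a serine protease inhibitor, had the smallest p of all genes and remained called in the most fits with a library left out, 7 of 17. It stood at 5.33, 5.3, 2.64 and 2.74 CPM in KO fear and 6.99, 5.38, 6.83, 2.93 and 2.64 CPM in KO home cage, against 2.07, 1.97 and 2.65 CPM in WT fear and 6.07, 7.4, 8.96, 7.39 and 9.44 CPM in WT home cage. WT fear lay below all WT home cage libraries. The 4 KO libraries of B3 held 2.64 to 2.93 CPM in both conditions, a range that WT fear 3 reached and WT fear 1 and 2 lay below. The interaction was 1.61 ± 0.23 (edgeR adjusted p = 0.038), from 0.01 ± 0.17 in KO and -1.61 ± 0.21 in WT. Arg2, the mitochondrial arginase, stood at 4.78, 5.66, 1.88 and 1.57 CPM in KO fear and 6.03, 2.69, 5.97, 1.82 and 2.31 CPM in KO home cage, against 1.13, 0.767 and 1.14 CPM in WT fear and 4.83, 4.52, 5.33, 5.32 and 7.15 CPM in WT home cage. WT fear was below every other library. Arg2 overlaps Vti1b on the opposite strand, and its interaction was 2.41 ± 0.43 (edgeR adjusted p = 0.0406).

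Further higher genes included an astrocyte filament and calcium-binding proteins. Gfap, the intermediate filament of astrocytes, had 0.85 ± 0.17 (edgeR adjusted p = 0.0421), but the median of the 10 astrocyte markers was 0.0169 and Gfap their 1 edgeR call. At an unadjusted p under 0.05, 2 of the 10 were higher, against 10.1% of all genes, and DESeq2 called 2 higher, against 2.08%. Maoa, the monoamine oxidase that degrades serotonin and noradrenaline, had 0.70 ± 0.14, and Il1rap, the accessory protein of the interleukin-1 receptor, 0.65 ± 0.12 (edgeR adjusted p = 0.0447 and 0.0406). For Gfap and Il1rap the WT fear difference alone did not pass (edgeR adjusted p = 0.0528 and 0.0557). Scgn, the calcium sensor secretagogin, had 2.01 ± 0.38, Srl, the calcium store protein sarcalumenin, 0.78 ± 0.15, and the follistatin-like gene Fstl5 0.95 ± 0.19 (edgeR adjusted p = 0.0406, 0.0406 and 0.0447). Mndal, an interferon-inducible gene of a family with near-identical copies, had 1.98 ± 0.34 (edgeR adjusted p = 0.0406), and its counts are uncertain for that reason.

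**Figure D3:**
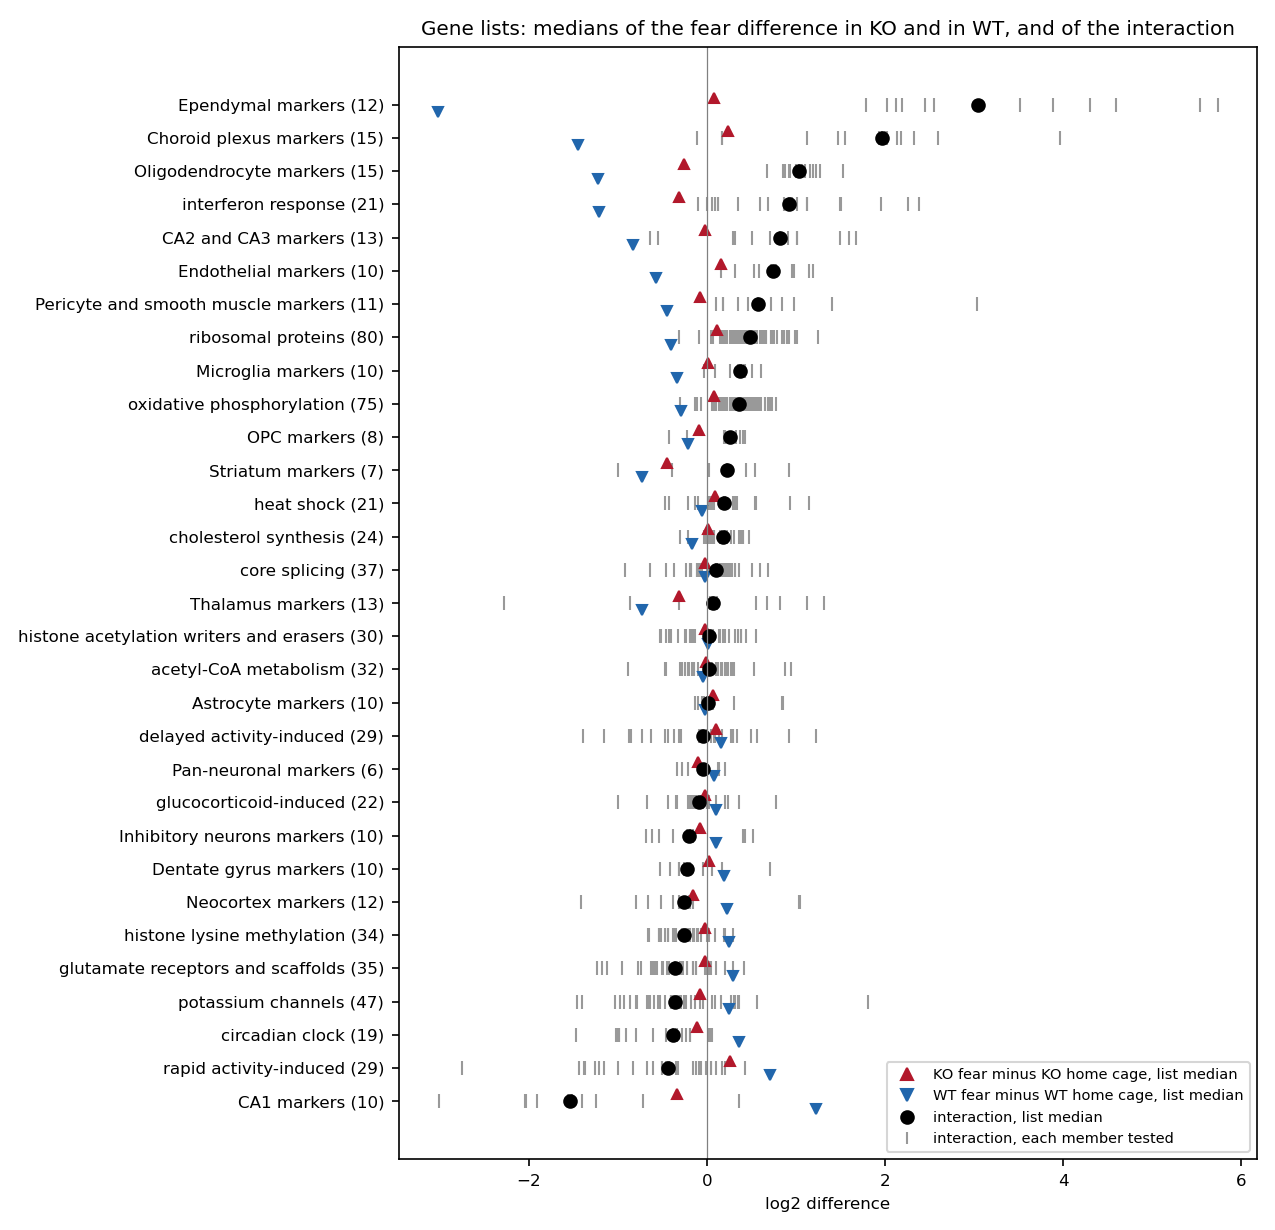
For each list with at least 6 members tested (number in brackets), grey ticks give the interaction of each member, the black circle the list median, and the triangles the median log2 fear difference in KO (red) and in WT (blue). KO medians lie between -0.44 and 0.26, and the WT medians spread from -3.02 for ependymal markers to 1.22 for CA1 markers.

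Genes of acetyl-CoA use, the process that ACSS2 serves, had no call. Of 32 acetyl-CoA metabolism genes 0 passed (edgeR; 2 higher and 3 lower at an unadjusted p under 0.05; DESeq2 1 higher and 1 lower), with a median of 0.03. The smallest p belonged to Pdk1, an inhibitor of pyruvate dehydrogenase, at -0.46 ± 0.14 (edgeR adjusted p = 0.0915). Acly, which makes acetyl-CoA from citrate, had -0.17 and Acss1, the mitochondrial relative of ACSS2, -0.15 (edgeR adjusted p = 0.407 and 0.616), both named after their values were seen. Of 30 writers and erasers of histone acetylation 0 passed (2 higher and 4 lower unadjusted; DESeq2 1 lower), with a median of 0.03, and Hdac4, a histone deacetylase that shuttles to the nucleus, had -0.46 ± 0.14. Both medians changed sign in some of the alternatives. Of 34 histone lysine methylation genes 0 passed (11 lower unadjusted; DESeq2 1 lower), 28 lay below 0 and the median was -0.26. Over all genes the shares at an unadjusted p under 0.05 were 10.1% higher and 11.8% lower, and by DESeq2 2.08% and 3.95%. The methylation median turned to 0.0326 and 0.12 with the CA1 and the ependymal markers as a covariate. Cholesterol synthesis genes, another route that uses acetyl-CoA, had 0 calls of 24 (1 higher unadjusted; DESeq2 1 higher), with 20 above 0 and a median of 0.18.

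Synaptic and housekeeping lists had at most 1 edgeR call each. Over all genes the shares were 10.1% higher and 11.8% lower at an unadjusted p under 0.05, and 2.08% and 3.95% by DESeq2. Among 35 glutamate receptor and scaffold genes edgeR called Cacng3 alone, against 0.284% of all genes, 14 were lower unadjusted and DESeq2 called 5 lower. Of the 35, 28 lay below 0, against 6871 of all 14808, and the median was -0.36. This median turned to 0.00362 and 0.15 with the CA1 and the ependymal markers as a covariate. The scaffold gene Homer1, whose short form is induced by activity, had -0.44 ± 0.13 (edgeR adjusted p = 0.0922). Of 47 potassium channel genes 0 passed (2 higher and 19 lower unadjusted, against 10.1% and 11.8% of all genes; DESeq2 1 higher and 6 lower). Their median of -0.36 turned to 0.0453 and 0.21 with those covariates. Of 80 ribosomal protein genes, which have many near-identical pseudogene copies, 78 lay above 0 with a median of 0.48, and of 75 oxidative phosphorylation genes 69 with a median of 0.36, against 53.6% of all genes tested. Neither list had a call by edgeR or DESeq2 (28 of 80 and 10 of 75 higher unadjusted, against 10.1% of all genes). With the same covariates the ribosomal median turned to -0.0125 and -0.0949 and the oxidative phosphorylation median to -0.0935 and -0.16. The interferon list had a median of 0.92 and 0 calls by either tool (6 of 21 higher unadjusted), and its summed level in WT home cage 2, at 292 CPM, was above the 129 to 183 CPM of the other 16 libraries. Glucocorticoid-induced genes had 0 calls of 22 (4 lower unadjusted; DESeq2 2 lower) and a median of -0.09. Heat shock genes had 0 calls of 21 (5 higher and 1 lower unadjusted; DESeq2 1 higher) and core splicing genes 0 of 37 (3 and 3 unadjusted; DESeq2 2 lower).

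Summed levels of cell type markers differed between the groups alongside the interaction. The 10 CA1 markers summed to 480, 462, 982 and 1090 CPM in KO fear and 446, 974, 778, 1100 and 1030 CPM in KO home cage, against 737, 1370 and 1270 CPM in WT fear and 630, 474, 435, 481 and 491 CPM in WT home cage. All 3 WT fear sums exceeded all WT home cage sums, and KO sums were low in the 2 B1 libraries and high in the 4 B3 libraries. The 12 ependymal markers summed to 78.9, 105, 56.3 and 41.4 CPM in KO fear and 155, 36.5, 51.9, 68 and 46.7 CPM in KO home cage, against 16.2, 14.7 and 13.1 CPM in WT fear and 61.8, 109, 157, 89.7 and 81.4 CPM in WT home cage. WT fear was below each of the other libraries. The 15 oligodendrocyte markers summed to 7300 to 11400 CPM in KO fear and 7570 to 12800 CPM in KO home cage, against 4340 to 5750 CPM in WT fear and 7420 to 14800 CPM in WT home cage. WT fear was again lowest of all. An interaction above 0 was found in 15 of 15 of these markers, against 53.6% of all genes. Their median of 1.04 turned to -0.70 with the ependymal covariate. For the interaction edgeR called 0, 15 were higher unadjusted against 10.1% of all genes, and DESeq2 called 8 against 2.08%. For fear in WT alone edgeR called 10 of them lower, against 0.756% of all genes. Of 15 choroid plexus markers edgeR called Sostdc1 alone, against 0.196% of all genes, and their median was 1.97. Above 0 were 14 of the 15, against 53.6% of all genes, and 12 were higher unadjusted, against 10.1%. DESeq2 called 6 of these markers higher, against 2.08%. Endothelial markers were all above 0 (10 of 10, against 53.6% of all genes, median 0.75, 0 called by edgeR). Unadjusted, 6 were higher, against 10.1% of all genes, and DESeq2 called 1 higher, against 2.08%. Over all genes the lower shares were 11.8% unadjusted and 3.95% by DESeq2. Microglia markers had a median of 0.37 and no call (0 unadjusted and 0 by DESeq2), dentate gyrus markers -0.22 with no call (1 higher and 1 lower unadjusted, DESeq2 0), and the 6 pan-neuronal markers -0.05 with no call (1 lower unadjusted, DESeq2 0). Of the remaining lists, inhibitory neurons, oligodendrocyte precursors, thalamus, neocortex, striatum and blood had medians of -0.21, 0.265, 0.0696, -0.25, 0.23 and 0.16, with 0 calls by edgeR (unadjusted 2, 1, 5, 3, 0 and 0; DESeq2 0, 0, 0, 3, 0 and 0), and of 6 blood markers only 1 could be tested.

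**Figure D4:**
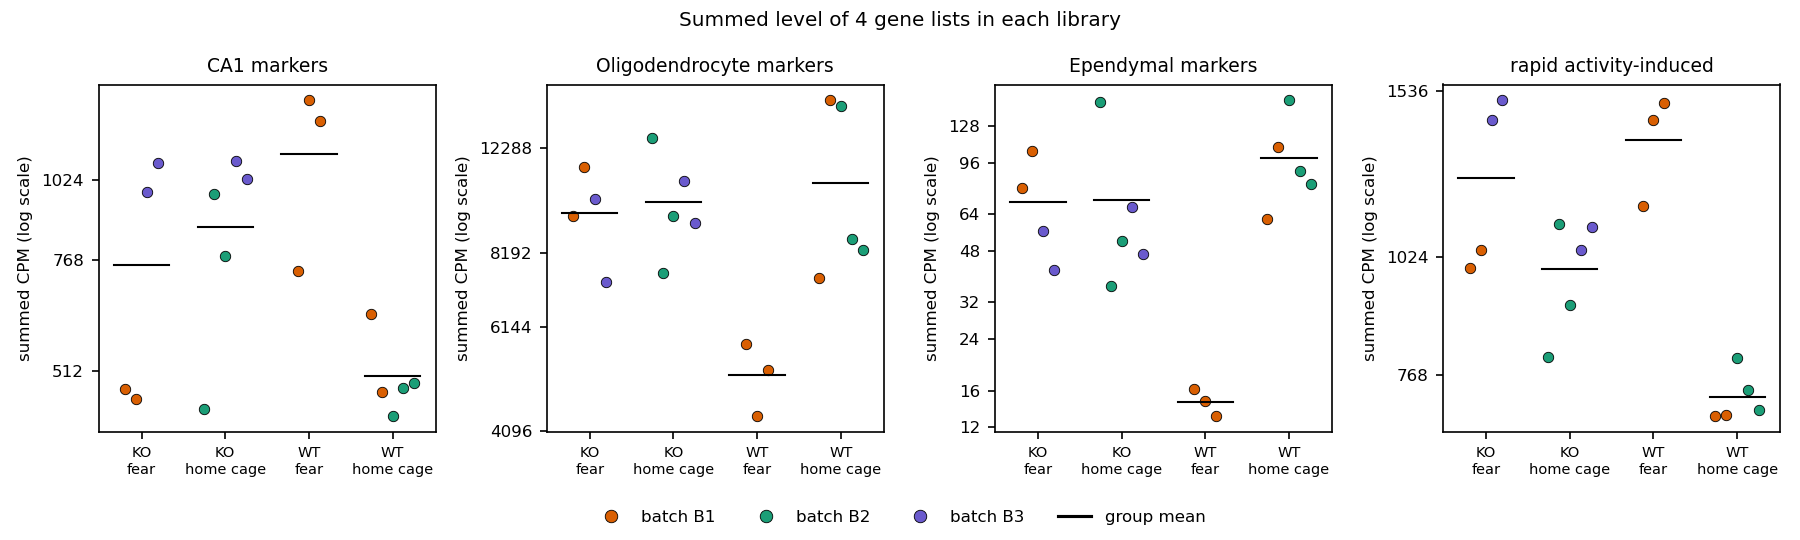
Each point is the summed CPM of a list in 1 library on a log axis, coloured by batch, and the line is the group mean. The WT fear libraries are lowest for oligodendrocyte (4340 to 5750 CPM) and ependymal markers (13.1 to 16.2 CPM), reach the highest CA1 sum (1370 CPM), and overlap KO fear in rapid activity-induced genes.

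With the mean log2 level of the CA1, ependymal or oligodendrocyte markers as a further term, alternatives chosen after seeing the data, the number of called genes was 0 in each case (257, 313 and 695 genes with an unadjusted p under 0.05). The median of the 29 higher genes was then 0.94, 0.94 and 1.51, and that of the 42 lower genes -0.40, -0.44 and -0.82. The direction was kept by 71, 68 and 71 of the 71 genes, which were chosen on the same libraries. The CA1 and ependymal lists contain 4 called genes each, so these terms partly use the genes they are set against. Beyond these fits, the part of the marker levels in the result was not tested.

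Since no batch held all 4 groups, the interaction was also computed along each route through them. Without B2 it sets the KO fear difference in B3 against the WT fear difference in B1. Without B3 it sets KO minus WT after fear in B1 against KO minus WT in the home cage in B2. Both routes rest on the same 3 WT fear libraries and are not independent, and the 71 genes were chosen with these libraries included. All 71 genes had the same direction on both, with medians of 1.6 and 1.98 for the higher and -0.96 and -1.19 for the lower genes, but neither route called a gene (1218 and 2605 with an unadjusted p under 0.05). Over all genes, 11887 of 14158 kept their direction without B2 and 12870 of 14251 without B3. Egr2 had -2.11 without B2 and -3.22 without B3, Egr1 -0.89 and -1.82, Dusp6 -0.79 and -0.94, Serpinb8 1.5 and 1.66, and Acta2 3.07 and 2.97. Within B3 alone the KO fear difference was 2.09 for Egr2, 0.54 for Junb, 0.47 for Egr1, 0.18 for Dusp6, 0.02 for Spry4, 0.02 for Nr4a2 and -0.29 for Bhlhe40. Within B1 alone KO minus WT after fear was -1.01, -0.67, -1.11, -0.62, -0.99, -1.23 and -1.14 for the same genes in that order. All 7 values within B1 were below 0, but the genes were called for a lower interaction, of which this difference is a part. Within B3 Egr2 lay farthest from 0, and Spry4 and Nr4a2 lay next to it. In the fit of all 17 libraries the KO fear difference was -0.04 ± 0.12 for Spry4 and -0.07 ± 0.19 for Nr4a2. The B1 values compare genotypes and the B3 values compare conditions within KO, so unlike signs are no disagreement between batches.

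**Figure D5:**
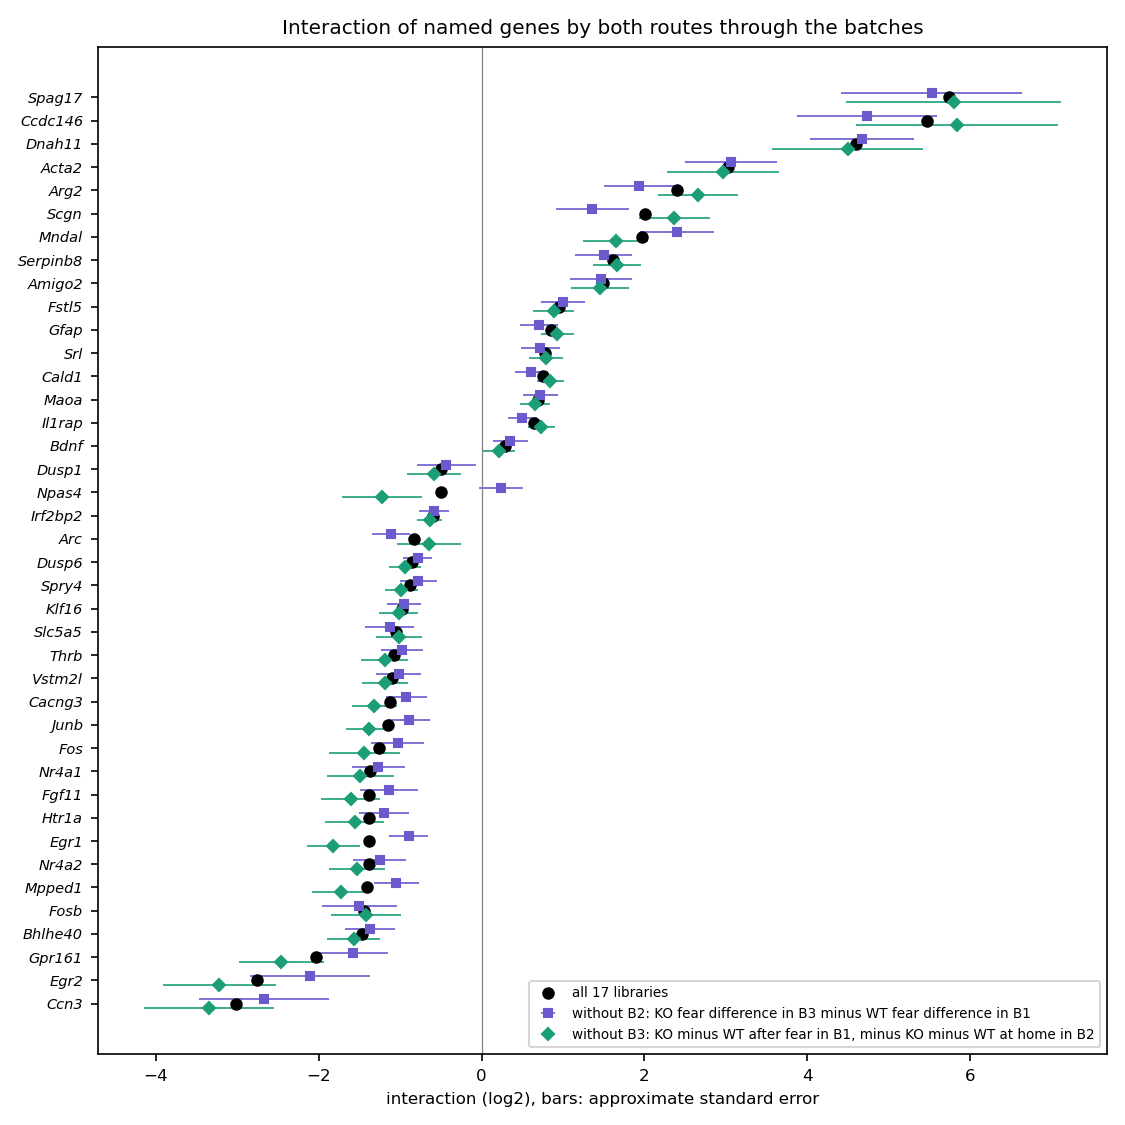
For each gene named by its p or as an activity gene, the interaction on the log2 scale is plotted from all 17 libraries (black), without B2 (purple) and without B3 (green), with bars of 1 approximate standard error on the routes. Npas4 is the 1 gene whose routes lie on opposite sides of 0, at 0.24 and -1.22.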

How the data were processed

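The authors deposited a table of counts per gene symbol, one column per library. Per the submitters' processing notes, the tools were DESeq2, limma, HTSeq 0.9.1, SAMtools 1.1 and STAR with build mm10, listed without roles or order. For the annotation, the version was not given in the sources used here. Per the labels' protocols, libraries were made from 300 ng of total RNA with a poly(A) kit that does not mark strand. Among the deposited symbols, 26 had been turned into dates.

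From the counts, genes were filtered with filterByExpr (minimum count 10, minimum total 15), which kept 14808 of 24985 symbols, scaled by TMM and fitted with edgeR 4.0.16 (R 4.3.3) as group plus batch over all 17 libraries, with 11 residual degrees of freedom. The quasi-likelihood F test was adjusted by Benjamini-Hochberg over the 14808 genes, and 0.05 was the threshold. Each ± beside a log2 value is a standard error, taken as the log2 value divided by the square root of F, and is approximate. CPM values are computed with TMM-scaled library sizes and carry no error when given per library. Batches are those of the labels, which do not say what a batch shared, and no library was dropped. Library totals ran from 5362773 to 23412644 counts, and low genes in the shallow B1 libraries are measured least precisely. Within a group, pairs of libraries differed by 5.86 to 58.9 chi-square units per gene (29 pairs), so no library was a duplicate. The code was tested on simulated data with known changes.

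The genes named were the 15 higher and 15 lower genes of smallest p, 10 preset activity genes, and up to 4 members of each list with the smallest p. Further genes are named where a small count is spelled out, after their values were seen. The genes and lists were chosen with earlier results of these data known. Promoters are RefSeq sequence, and GENCODE M21 matched 24508 symbols (98.1%). Alternatives were RLE scaling, DESeq2 1.42.0, limma-voom (limma 3.58.1), other filters, no batch term, leaving out B2 or B3, thinning to 5362773 counts, robust estimation, a replicate block, leaving out each library, and 3 marker covariates added after seeing the data.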

Additional observations from a re-analysis of the deposited data

Results flagged for a closer look

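For 38 of the 54 genes whose interaction is given, the test of the difference between the KO and WT fear differences passed in edgeR. Higher in KO than in WT were Serpinb8 (1.61), Dnah11 (4.59), Mndal (1.98), Cald1 (0.76), Arg2 (2.41), Amigo2 (1.49), Il1rap (0.65), Scgn (2.01), Acta2 (3.03), Srl (0.78), Gfap (0.85), Spag17 (5.74), Ccdc146 (5.47), Fstl5 (0.95), Maoa (0.70), Ccdc153 (4.30), Ak7 (3.89), Sostdc1 (1.93) and Anxa8 (8.25, no bound, since WT fear had 0 reads), all as log2 interactions. Lower were Bhlhe40 (-1.47), Dusp6 (-0.86), Klf16 (-0.97), Nr4a2 (-1.39), Cacng3 (-1.12), Spry4 (-0.87), Irf2bp2 (-0.60), Vstm2l (-1.10), Gpr161 (-2.04), Htr1a (-1.38), Mpped1 (-1.41), Ccn3 (-3.02), Fgf11 (-1.38), Slc5a5 (-1.05), Thrb (-1.08), Junb (-1.15), Egr1 (-1.38), Egr2 (-2.75) and Pou3f1 (-1.24).

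Dixon's test at 95% was run within KO fear, KO home cage and WT home cage, and not on the 3 WT fear libraries. Chance gives about 1 group in 20. In 7 of 162 groups of named-gene levels, or 4.32%, 1 library stood apart from its group. They were Amigo2 in KO fear 2 (33.4 CPM), Ccdc146 in KO home cage 1 (4.98 CPM), Maoa in WT home cage 2 (62.7 CPM), Fosb in WT home cage 3 (5.33 CPM) and Per2 in KO fear 4 (27.1 CPM). KO home cage 1 stood apart for Ccdc153 (29.1 CPM) and Anxa8 (3.22 CPM) as well.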

How the results depend on the processing

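Against 71 interaction calls and 241 fear calls in WT, DESeq2 gave 898 and 917, limma-voom 0 and 71, no filter 400 and 528, no batch term 0 and 712, libraries without B2 0 and 148, without B3 0 and 0, and thinned counts 27 and 66. RLE scaling gave 130 interaction calls, of which 30% were higher, against 40.8% with TMM. Each of the 3 marker covariates, chosen after seeing the data, gave 0 and 0. Leaving out 1 library gave 0 to 1007 interaction calls, 6 to 829 in WT and 0 to 0 in KO. In KO, DESeq2 called 6 genes and the fit without batch 1. The mean Acss2 level in KO fear was 5.53 CPM, 6.13 with thinned counts and 5.35 to 5.63 with a library left out. The stricter filter (77) and robust estimation (71) stayed within 1.5 times the interaction count. The 54 named genes had 1674 values under an alternative. Only the 38 genes that passed in the main fit could stop passing, and 812 of their values no longer passed. Of the values of the other genes 41 newly passed, and over all 54 genes 8 values reversed. Reversed were Npas4 without B2 (0.24), Htr1a (0.00356), Npas4 (0.0735), Pou3f1 (0.117), Acly (0.08) and Acss1 (0.0442) with the ependymal covariate, and Acly (0.0451) and Acss1 (0.0589) with the CA1 covariate. The cause was not tested. The medians of the rapid activity and clock lists kept their sign in 31 of 31 alternatives (-0.61 to -0.18 and -0.54 to -0.20). Besides the medians whose change of sign is given beside them, those of the glucocorticoid, heat shock, splicing, dentate gyrus, pan-neuronal, inhibitory neuron, oligodendrocyte precursor, thalamus, striatum and blood lists turned in at least 1 alternative, and that of the astrocyte list kept its sign in 18 of 31. Genes with few reads in the shallow WT fear libraries are limited by depth.

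With the replicate number as a block the interaction gave 0 calls and fear in WT 15. The numbers gave no clear sign of pairs: deviations of 22 pairs with the same number correlated at -0.506 to 0.288, 3 of them above 0.1. Of 17 libraries, 3 correlated best with their own number. The deviations were taken from group and batch, which ties libraries of a small group together, so this check cannot decide on pairing.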
